A study of Mus musculus with 42 samples.

Results

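The genes described here are the 3 teashirt zinc finger genes Tshz1, Tshz2 and Tshz3 and the 3 zinc finger homeobox genes Zfhx2, Zfhx3 and Zfhx4, 6 of 21938 protein-coding genes of the mouse annotation. Binding events of 21 event lists were assigned to a gene when the event lay inside its annotated span or within 50 kb of either end. The 6 windows cover 2439 kb, which is 0.0895% of the assembled genome. They held 2638 events, and events of any list within 100 bp of each other were merged into 633 sites, of 377270 merged sites in all. The genes were chosen by family name, with earlier results of these data known.

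The study expressed individual Hox transcription factors (TFs) in mouse embryonic stem cells (ESCs) that were differentiating into spinal motor neurons and mapped their binding by ChIP-seq, in which an antibody to a protein recovers the DNA it occupies. Every line was derived from Ainv15 ESCs and carried at the HPRT locus 1 copy of a Hox gene with an epitope tag, switched on by doxycycline (Dox), so the induced protein adds to the Hox genes the cells express themselves. Embryoid bodies (EBs) received retinoic acid and the Hedgehog agonist SAG, and Dox was added on day 2. Day 3, after 24 h of Dox, covered HOXC6 and HOXC8 of the central group, HOXC9, HOXA9, HOXD9, HOXC10 and HOXC13 of the posterior group, and 4 chimeras. HOXC6, HOXC9 and HOXC10 were assayed again on day 4, after 48 h of Dox. HOXC6 and HOXC9 were also assayed in EBs that got no patterning signal, after 12 h of Dox. The chimeras HOXC13:C10.1 and HOXC13:C10.2 join the N-terminal part of HOXC13 to a HOXC10 homeodomain and C-terminus, of which HOXC13:C10.2 takes more of the HOXC10 sequence before the homeodomain. The exchange was also made the other way, in HOXC10:C13.1 and HOXC10:C13.2. The cofactor MEIS was assayed on day 3 in the iHoxc6, iHoxc9 and iHoxc10 lines, and PBX on day 4 in the iHoxc9 and iHoxc10 lines, where the line name gives the induced gene.

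TSHZ proteins are zinc finger transcription factors related to the fly gene teashirt, which acts together with Hox genes in the trunk. ZFHX proteins are very large transcription factors that combine many zinc fingers with several homeodomains, and ZFHX3 is known for its part in neuronal differentiation and in the circadian clock of the hypothalamus. MEIS and PBX are homeodomain cofactors that bind DNA next to Hox proteins. Anterior and central Hox factors are known to prefer the letters TAAT and posterior factors TTTAT, while TTTAC is a HOXC13 variant and TGATTTAT places a PBX site next to a posterior Hox site.

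Each list pools its libraries, and no value per replicate exists. The differences below therefore have no error between differentiations and no test. Shares carry Wilson 95% intervals, which cover counting error only, and neighbouring sites of 1 gene are not replicates. The 40 libraries behind the lists held 5.04 to 32.9 M aligned reads, and the caller assigned a fraction of 0.008 to 0.527 of them to signal. All MEIS and PBX lists come from 1 library each, whereas a HOX list pools 2 libraries in 14 cases, 3 libraries in 1 case and 4 in another. The PBX libraries had the lowest signal fractions (0.008 and 0.009). The first HOXC10 library of day 3 stood apart with 5.04 M reads and a signal fraction of 0.017, and came from a V5-tagged line with another antibody. Most other HOX libraries used a Flag antibody, with an HA line for library 2 of HOXA9, HOXD9 and HOXC13, and the MEIS libraries came from V5 lines. Antibody, tag and factor cannot be told apart in comparisons with the day 3 HOXC10, HOXA9, HOXD9 and HOXC13 lists, which mix tags. The same holds for comparisons of a cofactor list with a HOX list. The other HOX lists rest on Flag lines alone. List length ran from 848 events (PBX, iHoxc10) to 128388 (HOXC9 in EBs), so counts are read beside the value for the whole list. In each list, events were ranked by their ChIP read count as estimated by the caller, with rank 1 for the most reads.

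The sequences of the sites on which the comparisons turn are shown first. Each site is named by its gene and its distance in kb from the gene start along the gene, and the printed stretch is 101 bases of the plus strand around the middle event, from the RefSeq copy of GRCm38 (mm10). Capitals mark the central letters TAAT, the posterior letters TTTAT, the variant TTTAC or the paired letters TGATTTAT on either strand, and overlapping matches run together.
Zfhx4 +235.2 kb, chr3:5453722-5453822: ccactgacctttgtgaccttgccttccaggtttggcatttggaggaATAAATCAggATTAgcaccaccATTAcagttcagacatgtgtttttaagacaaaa
Zfhx4 +131.1 kb, chr3:5349620-5349720: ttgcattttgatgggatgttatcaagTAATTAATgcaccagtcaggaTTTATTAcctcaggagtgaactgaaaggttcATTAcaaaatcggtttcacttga
Zfhx3 +322.3 kb, chr8:108264847-108264947: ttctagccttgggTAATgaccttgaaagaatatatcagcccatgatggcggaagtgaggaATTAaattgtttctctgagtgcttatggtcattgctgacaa
Zfhx3 +787.4 kb, chr8:108729958-108730058: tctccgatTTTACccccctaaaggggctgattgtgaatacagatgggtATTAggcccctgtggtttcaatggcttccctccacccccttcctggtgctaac
Tshz2 +150.1 kb, chr2:169783103-169783203: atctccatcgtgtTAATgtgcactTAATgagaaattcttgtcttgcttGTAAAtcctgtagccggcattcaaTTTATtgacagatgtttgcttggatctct
Tshz3 +12.5 kb, chr7:36710552-36710652: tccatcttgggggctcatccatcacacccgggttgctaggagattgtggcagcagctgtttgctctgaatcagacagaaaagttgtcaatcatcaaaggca
The Zfhx4 site at +235.2 kb is shown because it took rank 1 of the whole HOXC6 list of day 3, and it carries TGATTTAT on the minus strand (as ATAAATCA) beside 2 TAAT. The Zfhx4 site at +131.1 kb is 1 of the sites found in 19 of 21 lists, with 5 TAAT and 1 TTTAT. The Zfhx3 site at +322.3 kb ranked high with the central factors and holds 2 TAAT and no posterior letters. The Zfhx3 site at +787.4 kb was an event only in EBs, and the Tshz2 site at +150.1 kb was the highest HOXC13 event of the 6 genes. The Tshz3 site at +12.5 kb, which ranked high with the HOX9 paralogs and HOXC10, holds none of these letters. In 24142 consecutive stretches of 101 bases cut from the 6 windows, 44.7% held TAAT, 27.7% TTTAT, 16.4% TTTAC and 0.530% TGATTTAT.

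The highest MEIS events of the 6 genes in the iHoxc6 and iHoxc10 lines, though not in iHoxc9, lay in a tandem repeat in an intron of Tshz2. The sequences are shown to make that plain, with the MEIS letters TGACAG in capitals. These letters were chosen after the values were seen.
Tshz2 +174.0 kb, chr2:169806970-169807070: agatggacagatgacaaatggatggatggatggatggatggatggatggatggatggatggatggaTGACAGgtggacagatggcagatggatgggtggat
Tshz2 +174.2 kb, chr2:169807127-169807227: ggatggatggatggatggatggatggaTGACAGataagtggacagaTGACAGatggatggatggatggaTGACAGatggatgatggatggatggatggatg
The site at +174.0 kb holds TGACAG 1 time and the site at +174.2 kb 3 times, on a run of ggat units that the assembly marks as repeat. Of the 24142 stretches of the 6 windows, 7.16% held TGACAG.

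Over the full-length factors together, all 6 genes were dense in HOX events, and Tshz1 and Zfhx4 were the densest, although Zfhx2 and Tshz2 were not dense in every single list. Summed over the 7 full-length factors of day 3, the windows held 89.2 events per 100 kb at Tshz1, 70.6 at Zfhx4, 55.9 at Tshz3, 35.7 at Zfhx3, 28.8 at Zfhx2 and 28.0 at Tshz2. The share of the 21938 genes with a lower density was 99.8% for Tshz1, 99.6% for Zfhx4, 99.0% for Tshz3, 96.2% for Zfhx3, 93.1% for Zfhx2 and 92.6% for Tshz2. The median of the 6 was 45.8 per 100 kb beside 9.74 over all genes. Among 8 other genes that join zinc fingers to homeodomains, the median was 11.7, from 7.19 at Adnp2 to 87.7 at Zeb2. The 4 spalt zinc finger genes had a median of 42.1, from 9.35 at Sall2 to 61.6 at Sall1. An event among the 10000 with most reads of some full-length day 3 list lay in all 6 windows, in 6 of the 8 related windows, in 3 of the 4 spalt windows and in 52.9% of all gene windows. Unlike the densities, these counts of windows take no account of window length.

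Tshz1 (GRCm38, chr18:84011627-84087706, minus strand) held 60 sites in a window of 176 kb. On day 3 it held 8 HOXC6, 18 HOXC8, 30 HOXC9, 28 HOXA9, 29 HOXD9, 21 HOXC10 and 23 HOXC13 events. On day 4 the counts were 33 for HOXC6, 22 for HOXC9 and 13 for HOXC10. In EBs only 5 HOXC6 and 12 HOXC9 events were listed. The HOXC13:C10 chimeras 1 and 2 gave 32 and 42 events and the HOXC10:C13 chimeras 1 and 2 gave 7 and 9. MEIS gave 8, 16 and 14 in the iHoxc6, iHoxc9 and iHoxc10 lines. Divided by the density of all gene windows, its density was between 5.8 and 11.2 for the factors of day 3 other than HOXC13, 2.9 for HOXC13, and 1.5 for HOXC6 and 1.3 for HOXC9 in EBs. Tshz1 was thus dense in the spinal lists of the full-length factors and much less so in EBs.

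Tshz2 (chr2:169633013-170071816, plus strand) held 106 sites in 539 kb. On day 3 it held 6 HOXC6, 18 HOXC8, 31 HOXC9, 32 HOXA9, 24 HOXD9, 14 HOXC10 and 26 HOXC13 events. Day 4 gave 33 HOXC6, 22 HOXC9 and 14 HOXC10 events, and EBs gave 16 HOXC6 and 42 HOXC9 events. HOXC9 thus had more events at Tshz2 in EBs than on day 3, from a list that was longer (128388 beside 74085 events). The chimeras gave 43, 35, 8 and 9 events in the order used above, and MEIS 9, 19 and 17 events. For the HOXC10:C13 chimeras its density was 0.76 and 0.60 times that of all gene windows.

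Tshz3 (chr7:36698118-36773553, plus strand) held 55 sites in 175 kb. On day 3 it held 6 HOXC6, 13 HOXC8, 15 HOXC9, 17 HOXA9, 19 HOXD9, 8 HOXC10 and 20 HOXC13 events. Day 4 gave 19 HOXC6, 14 HOXC9 and 7 HOXC10 events, EBs 9 and 18, the chimeras 23, 21, 7 and 15, and MEIS 6, 10 and 7. It had fewer sites than Tshz1 and Tshz2 but lay between Tshz1 and Tshz2 per 100 kb.

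Zfhx2 (chr14:55060262-55092324, minus strand), the shortest gene, held 30 sites in 132 kb, and its window also holds the coding genes Ngdn, Thtpa, Ap1g2 and Jph4. The day 3 lists gave 2 HOXC6, 6 HOXC8, 3 HOXC9, 9 HOXA9, 11 HOXD9, 4 HOXC10 and 3 HOXC13 events. Day 4 gave 8 HOXC6, 5 HOXC9 and 9 HOXC10 events, EBs 11 and 18, the chimeras 7, 9, 0 and 0, and MEIS 2, 4 and 3. Zfhx2 had no event of a HOXC10:C13 chimera, and its counts for HOXC6 and HOXC9 were higher in EBs than on day 3. Its density was below that of all gene windows for HOXC9 (0.80 times) and HOXC13 (0.50 times) on day 3.

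Zfhx3 (chr8:107942644-108961630, plus strand) spans 1019 kb and held 264 of the 633 sites. The day 3 lists gave 22 HOXC6, 52 HOXC8, 81 HOXC9, 63 HOXA9, 65 HOXD9, 48 HOXC10 and 69 HOXC13 events. Day 4 gave 82 HOXC6, 35 HOXC9 and 25 HOXC10 events, EBs 23 and 70, the chimeras 89, 103, 27 and 40, and MEIS 10, 29 and 17. Its counts were the highest in every HOX list except HOXC10:C13.1, where Zfhx4 had the same count. Per 100 kb, it lay below Tshz1, Tshz3 and Zfhx4 over the summed day 3 factors.

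Zfhx4 (chr3:5218526-5415857, plus strand) held 118 sites in 297 kb. The day 3 lists gave 12 HOXC6, 24 HOXC8, 41 HOXC9, 35 HOXA9, 27 HOXD9, 26 HOXC10 and 45 HOXC13 events. Day 4 gave 36 HOXC6, 21 HOXC9 and 13 HOXC10 events, EBs 13 and 37, the chimeras 52, 52, 27 and 36, and MEIS 6, 13 and 13. It was the densest of the 6 genes for both HOXC10:C13 chimeras, at 4.6 and 4.3 times the density of all gene windows, where the other 5 genes lay between 0 and 3.1.

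**Figure D1:**
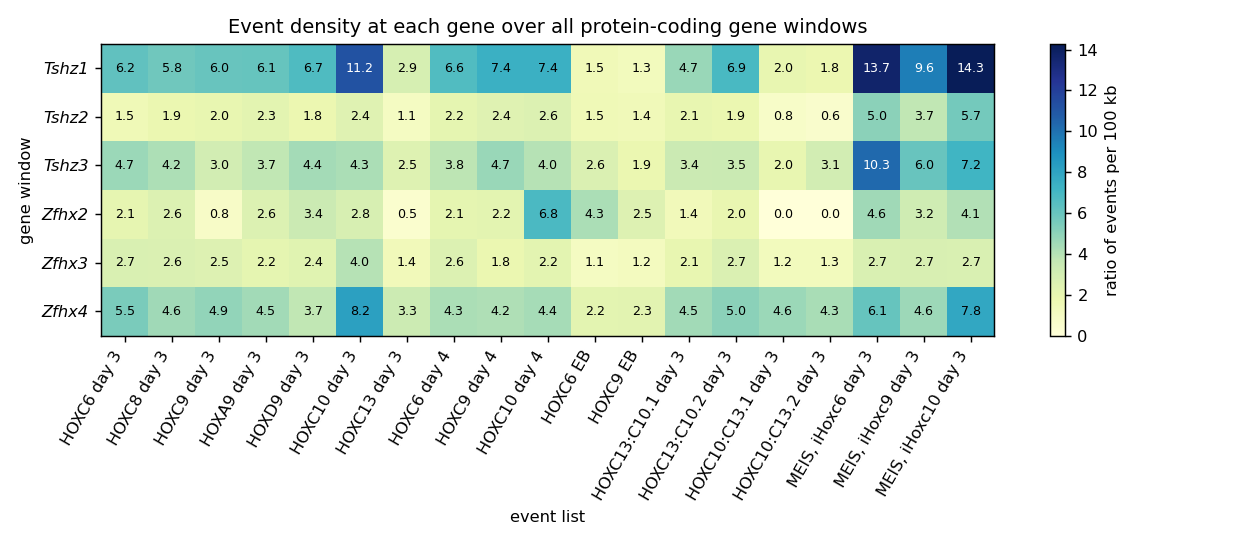
The density of events at each of the 6 gene windows (rows) divided by the density over all protein-coding gene windows is plotted for 19 lists (columns, without PBX), with colour and printed value giving the ratio of events per 100 kb. Tshz1, Tshz3 and Zfhx4 lie above the other genes in most lists, and Zfhx2 is at 0 for both HOXC10:C13 chimeras.

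At least 1 event of each HOX list lay in all 6 windows, except for the HOXC10:C13 chimeras, which had an event in 5. The same was true of 45.5% of all gene windows for HOXC6, 65.8% for HOXC8, 70.4% for HOXC9, 76.5% for HOXA9, 77.6% for HOXD9, 46.9% for HOXC10 and 84.3% for HOXC13 on day 3. On day 4 the background was 75.5% for HOXC6, 61.8% for HOXC9 and 63.7% for HOXC10, and in EBs it was 78.1% for HOXC6 and 89.3% for HOXC9. For the chimeras it was 78% (HOXC13:C10.1), 76.8% (HOXC13:C10.2), 63.3% (HOXC10:C13.1) and 72.4% (HOXC10:C13.2). An event in the window is therefore common for any gene, and for HOXC13 and HOXC9 in EBs it separates the 6 genes little. A longer window is also likelier to hold an event, and the 6 windows ran from 132 to 1119 kb. The shares of gene windows given here, for HOX, MEIS and PBX, take no account of that length. MEIS had an event in all 6 windows in each line, beside 24.1% of gene windows in iHoxc6, 46.6% in iHoxc9 and 36.8% in iHoxc10. PBX had 3 events in all, 1 each at Tshz2, Tshz3 and Zfhx2, in iHoxc9 cells (background 16.9% of gene windows) and none in iHoxc10 cells (background 2865 of 21938 gene windows), from lists of 1165 and 848 events.

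Per 100 kb, the 6 windows together held from 1.68 MEIS events in the iHoxc6 line to 10.7 HOXC13:C10.2 events, with PBX lower still. Relative to all gene windows, MEIS and HOXC10 of day 3 came first. HOXC10 of day 3 reached 4.64 times the density, HOXC6 3.14, HOXC8 3.03, HOXD9 2.93, HOXC9 2.90, HOXA9 2.88 and HOXC13 1.67. On day 4 the ratio was 3.07 for HOXC6, 2.89 for HOXC9 and 3.32 for HOXC10. In EBs it was 1.62 for HOXC6 and 1.49 for HOXC9, lower than in either spinal stage. HOXC13:C10.1 and HOXC13:C10.2 stood at 2.60 and 3.10. The values of HOXC10:C13.1 (1.59) and HOXC10:C13.2 (1.60) were lower. Over the 6 windows together, factors with the HOXC10 homeodomain and C-terminus stood above those with the HOXC13 homeodomain and C-terminus. At Zfhx4 this order did not hold throughout, with 4.63 for HOXC10:C13.1 and 4.51 for HOXC13:C10.1. The lists differ in length, and the cause of the order was not tested. MEIS stood at 5.06 with HOXC6 induced, 3.94 with HOXC9 and 5.23 with HOXC10.

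Among the 10000 events with most reads, the 6 windows held 34 HOXC6, 32 HOXC8, 32 HOXC9, 44 HOXA9, 39 HOXD9, 52 HOXC10 and 23 HOXC13 events on day 3. A top event lay in all 6 windows for HOXC9, HOXA9, HOXD9 and HOXC10 (backgrounds 19.5%, 25.3%, 28% and 23.1% of gene windows) and in 5 for HOXC6, HOXC8 and HOXC13 (25.7%, 22.1% and 26.1%). EBs gave 11 top events for HOXC6 and 14 for HOXC9, in 5 and 6 windows (32.9% and 29.1% of gene windows). Top events numbered 33 and 45 for the HOXC13:C10 chimeras, in all 6 windows (21.3% and 21.4%), but 10 and 10 for the HOXC10:C13 chimeras, in 4 windows each (22.5% and 22.9%). Day 4 gave 40, 38 and 39 top events for HOXC6, HOXC9 and HOXC10, in all 6 windows (22.2%, 19.3% and 40.4%). Window length was again not taken into account in the shares of gene windows.

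Most sites were intronic. Of 633 sites, 489 (77.3%) lay in introns of the 6 genes, 20 in exons, 82 upstream and 42 downstream, and 17 lay within 1 kb of a start site of their own gene. Zfhx3 had 245 of 264 sites in introns, whereas Zfhx2 had 5 of 30 there and 14 upstream. Sites were unevenly spread along the genes. At Tshz1, 19 of 60 sites lay between +5.2 and +14.8 kb, and at Zfhx2, 12 of 30 lay between −5.7 and +2.9 kb. At Zfhx4 the densest stretch of 10 kb ran from +168.7 to +178.0 kb with 13 sites, and at Zfhx3 from +783.2 to +792.0 kb with 12. Tshz3 had 9 sites between +2.2 and +12.1 kb, and Tshz2 had 8 between +437.6 and +447.4 kb, at the end of the gene.

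**Figure D2:**
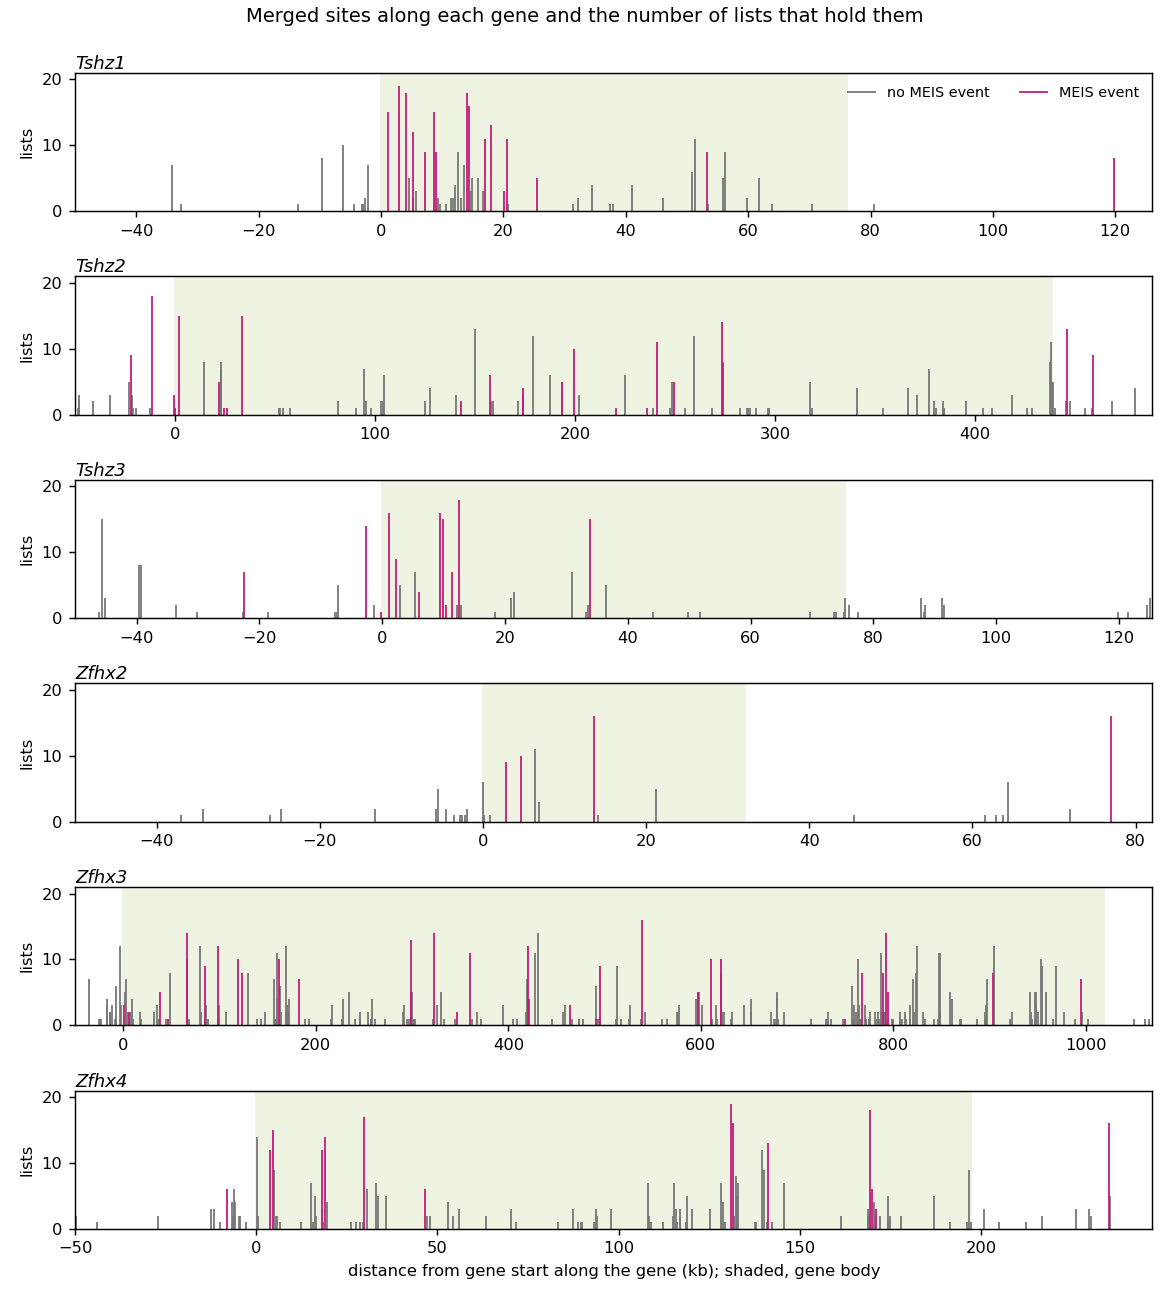
Each vertical line is a merged site, placed by its distance from the gene start along the gene (x axis, kb) with a height equal to the number of lists that hold it (y axis, of 21), in magenta where a MEIS list holds it, and the gene body is shaded. Broadly shared sites with MEIS gather in the first part of Tshz1 and Tshz3, while the sites of Zfhx3 are spread over 1019 kb.

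Sites at the 6 genes were held by more lists than sites elsewhere. A site was in 10 lists or more in 72 of 633 cases (11.4%), beside 5.13% of all merged sites, and in 15 or more in 24 cases (3.79% beside 0.988%). Sites in only 1 list made up 36.3%, beside 45.8%. All 7 full-length factors of day 3 shared 14 sites (2.21%), beside 0.844% of all sites. These 14 sites fell to Zfhx4 (5), Tshz1 (4), Tshz3 (2), Zfhx3 (2) and Tshz2 (1), and Zfhx2 had none. By gene, 20% of Tshz1 sites were in 10 lists or more, 13.3% at Zfhx2, 12.7% at Tshz3, 10.4% at Tshz2, 12 of 118 at Zfhx4 and 9.85% at Zfhx3. Zfhx3 had 1 site in 15 lists or more, fewer than Tshz1, Tshz3 and Zfhx4 with 6 each. That was 0.379% of its 264 sites, beside 0.988% of all sites. Its 2 sites with all 7 factors were 0.758%, beside 0.844%. Zfhx3, with the most sites, thus lay below all sites by both of these measures.

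**Figure D3:**
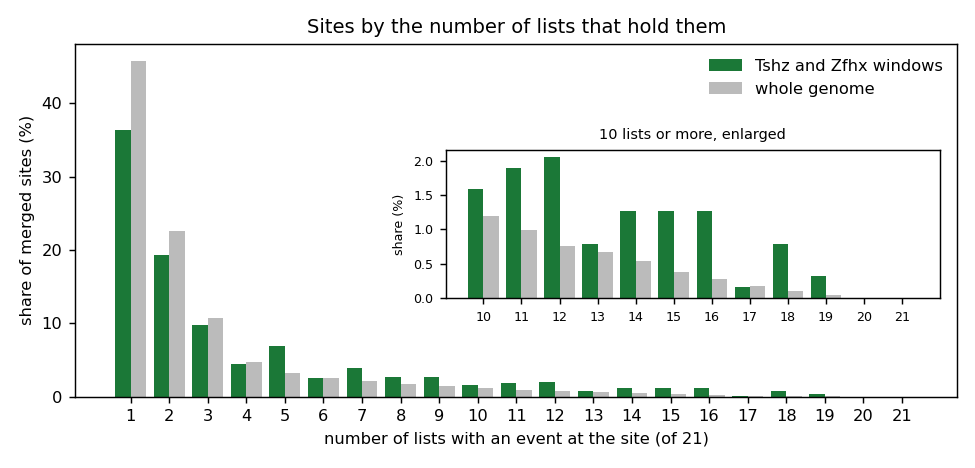
The share of merged sites (y axis, percent) is plotted against the number of the 21 lists that hold an event at the site (x axis), for the 6 windows (green, 633 sites) and the whole genome (grey, 377270 sites), with 10 lists or more enlarged in the inset. The green bars are lower at 1 list (36.3% beside 45.8%) and higher in most classes from 10 lists on.

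The question of which factors share sites was first asked of HOXC9 and HOXC10, 2 posterior factors with similar homeodomains. Of 121 HOXC10 events at the 6 genes, 96 (79.3%, interval 71.3 to 85.6%) had a HOXC9 event within 100 bp, beside 81.3% of the whole HOXC10 list. In the other direction, 99 of 201 HOXC9 events (49.3%, 42.4 to 56.1%) had a HOXC10 event, beside 30.4% of the HOXC9 list. HOXC9 sites with HOXC10 were thus more frequent here than in the list as a whole, while HOXC10 sites with HOXC9 were not. With both lists held to the 26873 events with most reads, the shares became 43.8% of HOXC10 events (whole list 48.7%) and 68.3% of HOXC9 events (whole list 51%). The HOXC9 share was 56.7% at Tshz1, 53.7% at Zfhx4, 48.1% at Zfhx3, 46.7% at Tshz3 and 38.7% at Tshz2, and 2 of 3 events at Zfhx2. Among all sites of the 6 genes, 85 (13.4%) had HOXC9 without HOXC6 or HOXC10, beside 12% of all sites. A further 37 (5.85%) had all 3 factors, beside 2.27%, and 19 (3.00%) had HOXC10 without the other two, beside 1.03%.

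HOXC6 on day 3, the central factor with the shortest HOX list, shared most of its few sites with HOXC8 and HOXC9. Of 56 HOXC6 events, 54 (96.4%) had a HOXC8 event, beside 90.2% of the list, and 43 (76.8%, 64.2 to 85.9%) a HOXC9 event, beside 69.8%. A HOXC10 event lay at 39 (69.6%, 56.7 to 80.1%), beside 50.6%. Of HOXC9 events, 44 of 201 (21.9%, 16.7 to 28.1%) had a HOXC6 event, beside 17.3%. Between HOXC6 and HOXC9 lists of equal length (17900 events), 46.4% of HOXC6 and 47.4% of HOXC9 events were shared, beside 35.3% and 37% of the lists. HOXC6 alone among HOXC6, HOXC9 and HOXC10 held 8 sites (1.26%, beside 1.16%).

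The HOX9 paralogs HOXA9 and HOXD9 shared 138 of 175 HOXD9 events (78.9%, 72.2 to 84.3%), beside 73.5% of the HOXD9 list. HOXA9 shared 128 of 184 events with HOXC9 (69.6%), beside 67.4%. HOXC13, the most posterior factor, had more of its events at HOXC9 and HOXC10 sites here than elsewhere. A HOXC9 event lay at 69 of 186 HOXC13 events (37.1%, 30.5 to 44.2%), beside 22.1%, and a HOXC10 event at 38 (20.4%, 15.3 to 26.8%), beside 7.46%. In the other direction, 35.3% of HOXC9 events and 30.6% of HOXC10 events had a HOXC13 event, beside 34.7% and 31.6%. HOXC13 without any other full-length day 3 factor held 103 sites (16.3%, beside 22.2%). Of these sites, 45 were at Zfhx3, 26 at Zfhx4 and 1 at Zfhx2.

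The order of the read counts at shared events was most alike between HOXA9 and HOXD9 and least between HOXC10 and HOXC13, among the full-length pairs of day 3 that were compared. Over 138 HOXD9 events with HOXA9, Spearman's rho between their read counts was 0.82, and 0.73 over the 41470 shared events of the whole list. It was 0.78 over 54 HOXC6 and HOXC8 events (list 0.67), 0.69 over 96 HOXC10 and HOXC9 events (list 0.48), 0.65 over 43 HOXC6 and HOXC9 events (list 0.37), 0.47 over 71 HOXC9 and HOXC13 events (list 0.24) and 0.29 over 37 HOXC10 and HOXC13 events (list 0.14). Of 17 pairs compared, 16 had a higher value here than in the list, and the exception was HOXC10:C13.1 with HOXC10:C13.2 (0.76 over 67 events, list 0.83). Sites of 1 gene and the control library are shared within these values, which are a description only.

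**Figure D4:**
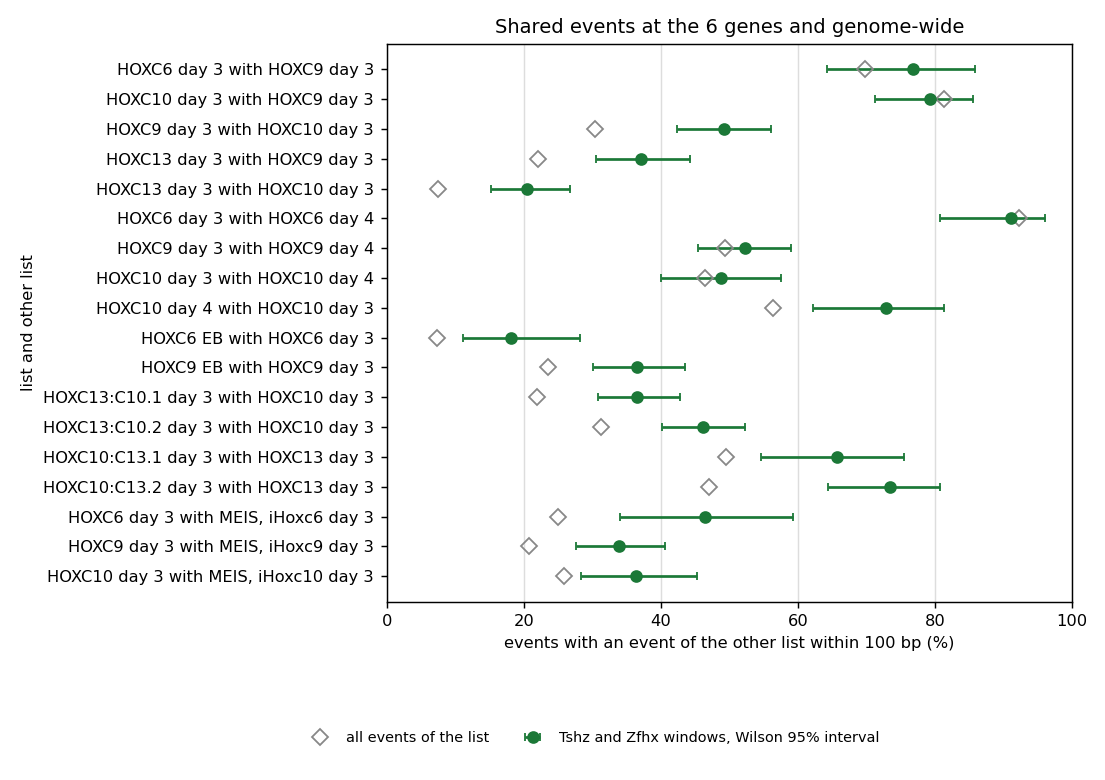
The share of events of the list named first that have an event of the list named second within 100 bp (x axis, percent) is plotted for the 6 windows (green points with Wilson 95% intervals) and for the whole list (open diamonds). HOXC9 events with HOXC10 (49.3% beside 30.4%) and HOXC13 events with HOXC9 (37.1% beside 22.1%) lie right of their diamonds, and HOXC10 events with HOXC9 (79.3% beside 81.3%) do not.

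The share of day 3 events that were found again on day 4 was close to that of the list for each of the 3 factors. An event of the same factor on day 4 lay at 51 of 56 HOXC6 events (91.1%, 80.7 to 96.1%), beside 92.4% of the list. The same held for 105 of 201 HOXC9 events (52.2%, 45.4 to 59.0%), beside 49.4%, and for 59 of 121 HOXC10 events (48.8%, 40.0 to 57.6%), beside 46.4%. Each interval holds the value of the list. Read from day 4, 61 of 211 HOXC6 events (28.9%) were already there on day 3, beside 25.9%, and 105 of 119 HOXC9 events (88.2%, 81.2 to 92.9%), beside 81.8%. For HOXC10 the day 4 share was 59 of 81 (72.8%, 62.3 to 81.3%), beside 56.4%. Between lists of equal length the day 4 shares were 70.4% for HOXC10 (59.7 to 79.2%, beside 52.4%), 77.3% for HOXC9 (69.0 to 83.9%, beside 65.8%) and 77.6% for HOXC6 (65.3 to 86.4%, beside 71.7%). The HOXC6 list held 17900 events on day 3 and 69297 on day 4, with signal fractions of 0.07 and 0.08 on day 3 and 0.304 and 0.311 on day 4. The part of this difference in the HOXC6 counts at these genes was not tested.

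EBs without patterning signals held an event at 213 sites, of which 112 also had a full-length event on day 3 or day 4 and 101 did not. Of 77 HOXC6 events in EBs, 14 (18.2%, 11.2 to 28.2%) had a HOXC6 event on day 3, beside 7.38% of the list, and of 197 HOXC9 events, 72 (36.5%, 30.1 to 43.5%), beside 23.5%. Read from day 3, 14 of 56 HOXC6 events (25%) were found in EBs, beside 18.1%, and 74 of 201 HOXC9 events (36.8%), beside 40.4%. Between HOXC6 lists of equal length the day 3 share was 5 of 56 (8.93%), beside 9.76%, and the EB share 5 of 25 (20%, 8.86 to 39.1%), beside 1829 of 17900 events of the list. Between HOXC9 lists of equal length the day 3 share was 29.4% (23.5 to 36.0%), beside 28.3%, and the EB share 46.0% (37.4 to 54.7%), beside 28.9%. The 101 sites without a full-length event on day 3 or day 4 were 16.0% of the sites here, beside 23% of all sites. They made up 43.3% of the sites at Zfhx2 (13 of 30), 22.6% at Tshz2, 15.5% at Zfhx3, 14.5% at Tshz3, 11.0% at Zfhx4 and 3.33% at Tshz1 (2 of 60). Tshz1 and Zfhx2 thus stood at opposite ends. Both EB lists held 24 of the 101 sites.

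The Zfhx3 site at +787.4 kb was the strongest of these. It took rank 416 of the HOXC6 list in EBs with 1624 reads and rank 1822 of the HOXC9 list in EBs with 1668 reads, and no other list held an event there. Its sequence, printed above, holds 1 TTTAC and 1 TAAT. The Zfhx3 site at +169.5 kb, the highest HOXC9 event of the 6 genes in EBs (rank 1565, 1811 reads), was instead kept in the lists of 6 factors on day 3, where it ranked 3017 with HOXC9 and 37815 with HOXC8. HOXC6 had no event there on day 3 or in EBs. These sites show the range from an event seen only in EBs to 1 shared with the spinal stages.

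The chimeras address which part of a Hox protein sets its sites, and the shares with each parent depended on list length. With HOXC10, 90 of 246 HOXC13:C10.1 events (36.6%, 30.8 to 42.8%) and 121 of 262 HOXC13:C10.2 events (46.2%, 40.2 to 52.2%) were shared, beside 21.9% and 31.3% of the lists. With HOXC13, the shares were 36.2% (30.4 to 42.4%) and 27.1% (22.1 to 32.8%), beside 37.5% and 28.5%. With all 3 lists of a comparison held to 26873 events, HOXC13:C10.1 shared 59.7% with HOXC10 and 33.8% with HOXC13, and HOXC13:C10.2 shared 78.8% and 17.3%. At equal length the lists as a whole gave 40.2% and 29.8% for HOXC13:C10.1, and 66.2% and 19.1% for HOXC13:C10.2. HOXC13:C10.2 took in 109 of 121 HOXC10 events (90.1%), beside 92.9%.

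For HOXC10:C13.1, but not for HOXC10:C13.2, the order of the parents changed with list length. HOXC10:C13.1 shared 50 of 76 events with HOXC13 (65.8%, 54.6 to 75.5%) and 24 with HOXC10 (31.6%, 22.2 to 42.7%), beside 49.5% of the list and 6274 of its 61482 events. HOXC10:C13.2 shared 80 of 109 with HOXC13 (73.4%, 64.4 to 80.8%) and 28 with HOXC10 (25.7%, 18.4 to 34.6%), beside 47% and 7.89%. At equal length, HOXC10:C13.1 shared 9 of 35 events with HOXC13 (25.7%, 14.2 to 42.1%) and 12 of 35 with HOXC10 (34.3%, 20.8 to 50.8%), beside 17.3% and 11.1%. HOXC10:C13.2 then shared 14 of 35 with HOXC13 (40%, 25.6 to 56.4%) and 9 of 35 with HOXC10 (25.7%, 14.2 to 42.1%), beside 20.8% and 8.56%. The intervals of the 2 parents overlap at these small counts for both chimeras, so no order of parents can be read at equal length. Only 19 sites (3.00%) were held by the HOXC10:C13 chimeras and by no other list, beside 11.2% of all sites.

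The highest event of both HOXC10:C13 chimeras lay in the 3′ untranslated exon of Tshz2, at +438.4 kb. The nearest annotated start site, 0.71 kb away, is that of another gene, A630075F10Rik. The event ranked 775 with HOXC10:C13.1 (468 reads) and 777 with HOXC10:C13.2 (523 reads). HOXC13 ranked it 33052 (130 reads), HOXC13:C10.1 67605 and HOXC9 in EBs 70111, and HOXC10 had no event there. The 6 genes held no event of these chimeras among the 500 best of their lists.

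MEIS events were frequent at the sites of the 6 genes. A MEIS event lay at 103 of 633 sites (16.3%), beside 6.86% of all sites, and 31 of these sites had it in all 3 lines. The sites with MEIS numbered 34 at Zfhx3, 23 at Tshz2, 16 at Tshz1, 14 at Zfhx4, 12 at Tshz3 and 4 at Zfhx2, and 85 of them also had a full-length factor on day 3. At Tshz1 they were 26.7% of the sites, the highest share of the 6 genes, and at Zfhx4 they were 11.9%, the lowest. MEIS without any HOX event held 10 sites (1.58%, beside 0.81%), of which 6 were at Tshz2. Of the HOX events of day 3, 26 of 56 with HOXC6 (46.4%, 34.0 to 59.3%), 68 of 201 with HOXC9 (33.8%, 27.6 to 40.6%) and 44 of 121 with HOXC10 (36.4%, 28.3 to 45.2%) had a MEIS event from cells with the same gene induced, beside 24.9%, 20.8% and 25.8%. At Zfhx3 the HOXC10 share was 8 of 48 (16.7%), below that of the list. The HOXC6 and HOXC9 shares at Zfhx3 were 31.8% and 25.9%, above their lists. HOXC10 shares at the other genes ran from 38.5% at Zfhx4 to 75% at Zfhx2 (3 of 4 events). The MEIS cells were V5 lines. The HOXC6 and HOXC9 libraries of day 3, and all HOXC10 libraries but the first, came from Flag lines. With the 3 MEIS lists held to the length of the shortest, the HOXC9 share was 17.9% (36 of 201), beside 9.33% of the HOXC9 list, and the HOXC10 share 25.6% (31 of 121), beside 18% of the HOXC10 list. Of 41 MEIS events in iHoxc6 cells, 38 (92.7%) were also MEIS events in iHoxc10 cells, beside 72.6% of the list.

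MEIS events here held the letters TGACAG within 50 bp in 41.5% (27.8 to 56.6%) of cases in the iHoxc6 line, 34.1% (25.2 to 44.3%) in iHoxc9 and 35.2% (25.1 to 46.8%) in the iHoxc10 line. The whole lists gave 25.5%, 21.2% and 23.4%. The letters were chosen after the values were seen, and the repeat sites of Tshz2 are among the events counted. Shares without those sites were not computed. The repeat sites of Tshz2 printed above ranked high in every line. The site at +174.0 kb had rank 7 in the iHoxc6 line (1326 reads), rank 636 in iHoxc9 (308 reads) and rank 27 in iHoxc10 (547 reads). The site at +174.2 kb had ranks 16, 341 and 6, with 783, 403 and 998.5 reads. HOX factors were nearly absent from both, with 1 event in all, at rank 36717 of HOXC6 in EBs. Their log2 fold over the control library ran from 7.24 to 8.60 in the MEIS lists, and the part of the repeat in these events was not tested. Of the 633 sites, 12.6% had their middle in a marked repeat, beside 16.8% of all sites.

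The site at Tshz1 +2.9 kb combined high MEIS and high HOX ranks. It lies in an intron, 0.313 kb from an annotated start site of Tshz1, and 19 of 21 lists held it. MEIS ranked it 10 (iHoxc6), 37 (iHoxc9) and 8 (iHoxc10). HOXD9 ranked it 59, HOXA9 95, HOXC10 102, HOXC9 643, HOXC13 1568, HOXC6 3511 and HOXC8 4827 on day 3. The central factors thus ranked it below the posterior ones. In EBs it had rank 10716 with HOXC6 and 26645 with HOXC9. The second named Tshz1 site, at +14.1 kb, was in 18 lists and was the highest HOXC9 event of the 6 genes on day 4 (rank 455), with ranks 359 for HOXC8, 499 for HOXC10, 679 for HOXC9 and 22700 for HOXC13 on day 3.

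The Tshz3 site at +12.5 kb led with the same 4 factors as Tshz1 +2.9 kb. It lies in an intron of Tshz3 inside the non-coding gene Gm37452, and 18 lists held it. On day 3 it ranked 36 with HOXD9 (1332 reads), 105 with HOXA9 (1469), 132 with HOXC10 (693) and 158 with HOXC9 (2425). HOXC8 ranked it 3012, HOXC6 3455 and HOXC13 14138. On day 4 it was the highest HOXC10 event of the 6 genes, at rank 82, and MEIS ranked it 41, 159 and 303. Among the full-length factors of day 3, the 4 highest ranks thus belonged to posterior factors, at a site whose 101 bases hold none of the 4 Hox letters.

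The Zfhx4 site at +131.1 kb, in an intron, was also in 19 lists. It ranked 63 with HOXC10 on day 3 (874 reads), the highest HOXC10 event of the 6 genes, 337 with HOXC9, 1233 with HOXA9, 1622 with HOXD9, 4032 with HOXC8, 4896 with HOXC13 and 4976 with HOXC6. On day 4 HOXC10 ranked it 89 and HOXC9 541. In EBs HOXC9 ranked it 2192 (1505 reads), and HOXC6 17412 (92.8 reads). It differed from the Tshz1 and Tshz3 sites in keeping a high HOXC9 rank in EBs.

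The Zfhx4 site at +235.2 kb, in the downstream flank, led with HOXC6. It took rank 1 of 17900 HOXC6 events on day 3 (1855 reads) and rank 25 of 69297 on day 4 (3748 reads). HOXC8 ranked it 91 (1713 reads), HOXC9 239 (2048 reads), HOXA9 1135, HOXC10 1647 and HOXD9 4878 on day 3, and HOXC13 had no event. On day 4 HOXC9 ranked it 8063 and HOXC10 12593. HOXC13:C10.1 ranked it 45 (6477 reads) and HOXC13:C10.2 137 (2735 reads), higher than either parent, while no HOXC10:C13 chimera had an event. MEIS ranked it only 2211, 11002 and 10233. In EBs it ranked 7615 with HOXC6 and 30372 with HOXC9.

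The Zfhx3 site at +322.3 kb likewise led with the central factors. It ranked 109 with HOXC8 (1639 reads), 153 with HOXC6 (612 reads), 669 with HOXC10, 971 with HOXC9, 3110 with HOXD9 and 3722 with HOXA9 on day 3, and 39 with HOXC6 on day 4 (3147 reads). HOXC13, the HOXC10:C13 chimeras and both EB lists had no event there. On day 4 HOXC10 ranked it 286 and HOXC9 655. MEIS ranked it 288, 824 and 872. The Zfhx3 site at +538.7 kb was in 16 lists and ranked 877 with HOXC9, 952 with HOXC13:C10.2 and 971 with HOXC6 on day 4, with no HOXC13 event.

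The Tshz2 site at +150.1 kb led with HOXC13. It ranked 59 of 115879 HOXC13 events (3715 reads), 823 with HOXA9 (684 reads), 3387 with HOXD9, 5712 with HOXC9, 7995 with HOXC10 and 19908 with HOXC8 on day 3. HOXC6 had no event on day 3 and ranked it 23795 on day 4. HOXC10:C13.2 ranked it 16416, HOXC10:C13.1 had no event, and MEIS had none. The Tshz2 site found in most lists was the site at −11.6 kb, upstream of the gene, in 18 lists, with ranks from 879 for HOXD9 to 10427 for HOXC8 among the full-length factors of day 3.

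Zfhx2 had no site of comparable rank on day 3. Its site at +13.6 kb lies in an exon of a non-coding transcript and was in 16 lists, with its highest ranks for HOXD9 (1196, 418 reads) and HOXC10 on day 4 (1561, 289 reads). The site at +77.0 kb, also in 16 lists, lies 0.14 kb from the start of the neighbouring gene Ngdn, so it is a site of that gene as much as of Zfhx2. HOXA9 ranked it 1525, HOXD9 2821, HOXC10 10135 and HOXC9 46825 on day 3, and it held the highest PBX event of the 6 genes (rank 325 of 1165, 35.6 reads).

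**Figure D5:**
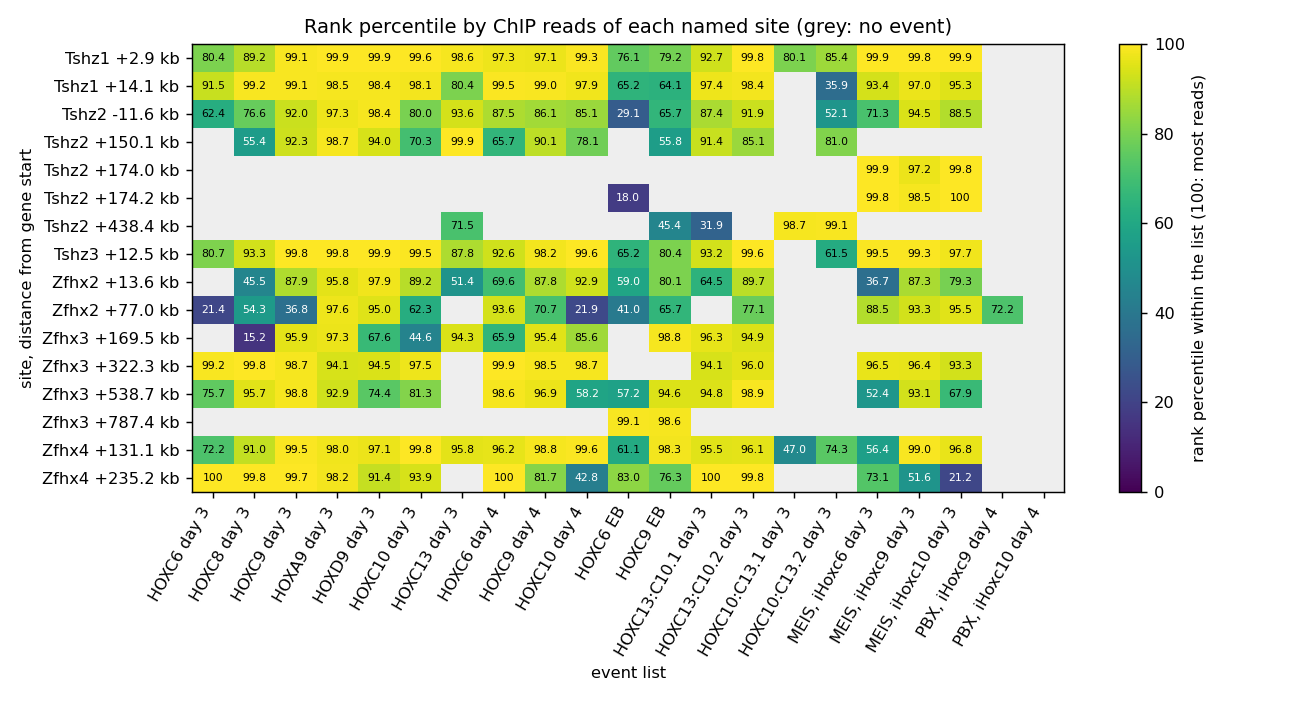
For 16 named sites (rows, by distance from the gene start) the colour and printed value give the rank percentile by ChIP reads in each of the 21 lists (columns, where 100 is the event with most reads), and grey marks no event. Zfhx4 +235.2 kb is at 100 for HOXC6 and grey for HOXC13, Tshz2 +150.1 kb is at 99.9 for HOXC13 and grey for HOXC6 on day 3, and Zfhx3 +787.4 kb is coloured only in the 2 EB lists.

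The question of sequence was asked with the same 4 sets of letters. In 52 of 64 pairs of a HOX list and a set of letters, the interval of the 6 genes held the value of the list. TAAT was within 50 bp of 66.1% of HOXC6 events on day 3 (53.0 to 77.1%), beside 71.1% of the list, and of 72.6% of HOXC9 events (66.1 to 78.3%), beside 74.7%. TTTAT lay at 60.2% of HOXC9 events (53.3 to 66.7%), beside 62.4%, at 61.2% of HOXC10 events (52.3 to 69.4%), beside 54.2%, and at 78.0% of HOXC13 events (71.5 to 83.3%), beside 78.8%. TTTAC was at 44.1% of HOXC13 events (37.1 to 51.3%), beside 42.8%. Each of these intervals holds the value of the list. TTTAT was instead more frequent than in the list at HOXC6 events on day 3 (53.6%, 40.7 to 66.0%, beside 38.4%), on day 4 (52.1%, 45.4 to 58.8%, beside 44.5%) and in EBs (41.6%, 31.2 to 52.7%, beside 26.7%). It was less frequent at HOXC10:C13.1 events (80.3%, 70.0 to 87.7%, beside 89.2%) and HOXC10:C13.2 events (77.1%, 68.3 to 84.0%, beside 90%). TGATTTAT was at 10.7% of HOXC10 events (6.39 to 17.5%), beside 7.31%, and at 3.23% of HOXC13 events (1.49 to 6.86%), beside 2.48%. TGATTTAT was more frequent than in the list at HOXC10 events on day 4 (9 of 81, 11.1%, 5.96 to 19.8%, beside 5.46%) and at HOXC10:C13.1 events (6 of 76, 7.89%, 3.67 to 16.2%, beside 3.44%). The same held for HOXC6 on day 4 (16 of 211, 7.58%, 4.72 to 12.0%, beside 4.7%) and for both factors in EBs, with 5 of 77 HOXC6 events (6.49%, 2.81 to 14.3%, beside 2.43%) and 9 of 197 HOXC9 events (4.57%, 2.42 to 8.45%, beside 2.35%). TAAT was less frequent at HOXC13 events (68.3%, 61.3 to 74.5%, beside 74.7%) and at HOXC10:C13.2 events (84.4%, 76.4 to 90.0%, beside 90.1%). These letters overlap in part, since TGATTTAT contains TTTAT.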

How the data were processed

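ChIP-seq of induced HOX proteins, MEIS and PBX was compared over 21 event lists. Bowtie 1.0.1, Picard 2.8.2 and edgeR 3.22.5 are named in the submitters' processing notes, with build mm10, and the study's methods give MultiGPS as the caller, run over pooled replicates against a control library. The deposited lists hold, per event, the authors' estimated count of ChIP reads, a control read count, the enrichment over control as a log2 fold, and a q-value as a log2 score. The deposited position tracks hold the same events with a score, which was not used. Columns of the authors' comparisons between conditions hold log2 CPM, log2 fold changes and log2 p-values, and were not used. All 1087512 events had a q-value under 0.001. Of the events at the 6 genes, 2330 carried a deposited sequence, and all 2330 were found on GRCm38 within 150 bp.

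Groups came from the labels. The headers of the day 4 lists name another day, and the labels were followed. Gene spans are those of the mouse GENCODE release M21. Events in a span or within 50 kb were counted, merged within 100 bp, and called shared when another list had an event within 100 bp. Letters were searched on both strands within 50 bp. Events were ranked by the estimated ChIP read count, and the top 10000 of a list were counted separately. Named sites are, for each gene, the site in most lists and the site with the highest rank percentile in a full-length day 3 list, then the highest event of each list, and the highest sites seen only in EBs. Wilson 95% intervals were computed with statsmodels 0.14.6 in Python 3.11.15. The functions were tested on simulated data. No replicate values exist, so no test was made. The genes, related lists and comparisons were chosen with earlier results of these data known. Other distances, flanks, q-value limits, list lengths and letter windows were tried. The 2 control libraries without a list were not used.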

Additional observations from a re-analysis of the deposited data

How the results depend on the processing

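No paired analysis was possible because no comparison comes from a test and the lists pool their replicates, and for the same reason no replicate could be left out. Of 72 alternatives to the main values, 49 kept the value within its interval or within 1.5 times the count and 23 moved it. Of the other 246, for single genes or pairs, 114 kept it and 132 moved it. With events at a q-value under 1e-10, the sites numbered 376 in place of 633 and the share with MEIS was 12.5%. Merging within 50 bp gave 8.72% of sites in 10 lists or more. For neither setting was the share over all sites of the series computed. The values for all sites given above (6.86% with MEIS and 5.13% in 10 lists or more) belong to the main setting only. The top 5000 events of each list gave 284 events at the 6 genes, in place of 496 for the top 10000.

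List length moved the shares most. Between lists of equal length, 43.8% of HOXC10 events had HOXC9 and 68.3% of HOXC9 events had HOXC10, 46.4% of HOXC6 events had HOXC9 and 47.4% of HOXC9 events had HOXC6, and 45.4% of HOXC13 events had HOXC9 (27.5% of the list). In the other direction, 27.9% of HOXC9 events had HOXC13, close to the 27.5% of the list. Day 3 events found on day 4 made up 71.1% for HOXC9 (list 67.1%) and 66.1% for HOXC6 (list 65.2%), and 46.0% of HOXC9 events in EBs were found on day 3 (list 28.9%). HOXC10 was shared by 59.7% of HOXC13:C10.1 and 78.8% of HOXC13:C10.2 events (52.7% within 200 bp at full length), and HOXC13 by 17.3% of HOXC13:C10.2, 25.7% of HOXC10:C13.1 and 40% of HOXC10:C13.2 events. With MEIS lists of equal length, 17.9% of HOXC9 (list 9.33%) and 25.6% of HOXC10 events (list 18%) had MEIS from cells with the same gene induced. TTTAT, at 59.3% of the HOX events pooled over the lists, was at 42.4% within 25 bp, at 74.7% within 100 bp and at 62.1% of the top 10000 events. The shorter lists and windows hold fewer events or letters by construction, and no other cause was tested. Chosen after seeing the data, leaving out Zfhx3 gave 12.5% of sites in 10 lists or more, and leaving out the 2 repeat sites of Tshz2 gave 16.0% of sites with MEIS.

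The limits are those of pooled lists. An event missing from a list is not shown to be absent, least of all at low signal fractions, as for HOXC6 on day 3 (0.07 and 0.08) and PBX (0.008 and 0.009). This applies to HOXC10 as well, with signal fractions of 0.047 to 0.056 on day 4 and of 0.017, 0.041 and 0.161 on day 3. The control libraries differed between the stages, with 4.72 M reads on day 4, 10.5 M in EBs and 20.3 or 20.6 M on day 3. Windows of Zfhx2, Tshz1 and Tshz2 hold other coding genes, so an event there need not bear on the named gene.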

Other observations

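The 24 sites held by 15 lists or more were looked at after their values were seen. At Tshz1 they lay at +1.1, +2.9, +4.1, +8.6, +14.1 and +14.4 kb, all in introns near the start of the gene, and at Tshz3 4 of 6 lay between +1.1 and +12.5 kb, with the others at −45.6 and +33.8 kb. At Zfhx4 they were spread over the gene, at +4.5, +29.8, +131.1, +131.5, +169.5 and +235.2 kb. A MEIS list held 23 of the 24. The exception was the Tshz3 site at −45.6 kb, which 15 lists held, with all 4 chimeras and 6 of the 7 full-length factors of day 3. The MEIS lists are themselves among the lists counted to pick these sites, so a high MEIS count is partly built in. The share with MEIS among the 3729 sites of the whole series in 15 lists or more was not computed.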
